A study of Rattus norvegicus with 21 samples.

Results

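The response to phenylephrine (PE) was examined in neonatal rat ventricular myocytes (NRVMs), heart muscle cells cultured from newborn rats, that had received a control adenovirus carrying green fluorescent protein (Ad-GFP). The comparison used 6 of the 21 samples of the series, 3 RNA sequencing libraries of Ad-GFP cells labelled with PE for 36 hours and 3 of Ad-GFP cells labelled 0 hours, all chosen by their labels and not by any measured value. Per the labels' protocols, cells were kept with or without 100 µM PE for 12 h and then infected for another 24 h, so every library here, treated or untreated, came from virus-infected cells, grown in DMEM with insulin, transferrin, selenium and antibiotics. The untreated libraries carry the same 100 µM PE entry in their treatment field as the treated ones, and their titles and the 0 hour entry set them apart. The other samples of the series hold KLF2 knockdown and overexpression, and the siNeg libraries, cells given a negative control small interfering RNA 12 h before PE or no PE, serve here as a second control arm of 4 libraries. Nothing in the labels ties the libraries of a group to different cell preparations. The p-values therefore reflect only library-to-library spread, and that spread may be technical.

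PE activates α1-adrenergic receptors, which couple through Gq proteins to phospholipase C, inositol trisphosphate, calcium release and protein kinase C. In cultured ventricular myocytes this pathway is a standard inducer of hypertrophy, in which cells enlarge without dividing, add sarcomeres, raise protein synthesis and re-express genes of the fetal heart. The files list genes by Ensembl ID without symbols, and 0 of the 30560 IDs matched the reference table used here. Lists of hypertrophy, metabolic and cell type marker genes were therefore not analysed, and neither the muscle identity of the cells nor the share of fibroblasts, endothelial cells or other cells was checked. With no names, the response is described below by its size, its direction and the level of the genes it touched, and 4 IDs are followed individually. In bulk RNA, fewer cells of a type and less RNA per cell cannot be told apart.

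Both groups differed in more than treatment. The 3 untreated Ad-GFP libraries held 53623078 to 60994028 counts and the 3 treated ones 33155447 to 39723124. At this greater depth the untreated libraries detected fewer genes, 16238 to 16812 against 17059 to 17438, and held only 539 to 776 genes at 1 to 5 counts against 1872 to 1994. Among the untreated libraries 188 genes had no count in at least one of them yet reached 50 or more elsewhere in the group, while 10 genes did so among the treated ones. None of the 188 reached a mean of 10 CPM, the unit used below for counts relative to the scaled library total, and the highest mean among them was 2.55 CPM. Groups did not overlap in any of these library measures, and with 3 libraries against 3 an exact two-sided permutation test cannot go below p = 0.1.

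The spread between untreated libraries was also wider at each level of expression examined. Among genes of 10 to 50 CPM the median SD was 0.15 on the log2(CPM + 0.5) scale without PE and 0.10 with PE, and at 1 to 10 CPM it was 0.31 and 0.20. At 1000 CPM or more it was 0.053 and 0.042. The results below therefore rest on the 9259 of 14966 tested genes whose mean over the 6 libraries was 10 CPM or more. Genes just inside and just outside that minimum had means of 10.0003 and 9.99939 CPM, and the 427 genes of 10 to 12 CPM and the 464 of 8 to 10 CPM had median log2 fold changes of -0.10 and -0.12.

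**Figure D1:**
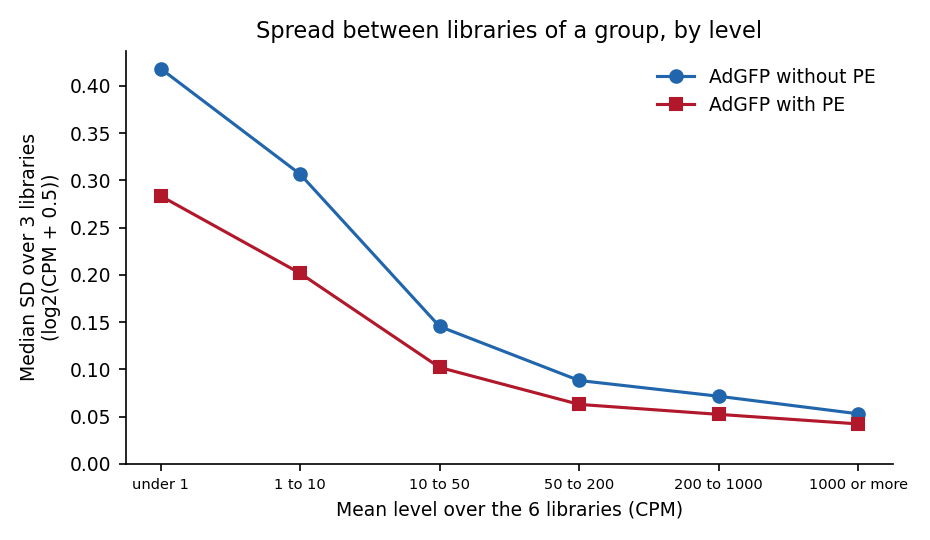
Median SD over the 3 libraries of a group, on the log2(CPM + 0.5) scale (y axis), for genes in 6 classes of mean level in CPM (x axis). Untreated AdGFP libraries (blue circles) lie above PE-treated ones (red squares) in each class, by 0.31 against 0.20 at 1 to 10 CPM and by 0.053 against 0.042 at 1000 CPM or more.

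A large part of the transcriptome of Ad-GFP cells differed between libraries with and without PE, mostly by modest amounts. Library depth and gene detection differed along with treatment, and their part in this was not tested. Of the 9259 genes of at least 10 CPM, 42.6% changed at an adjusted p under 0.05 in edgeR's quasi-likelihood test, 2252 upward and 1690 downward (24.3% and 18.3%). With a fold of at least 1.5 in addition, 609 rose and 543 fell (6.58% and 5.86%). Raised and lowered genes numbered 200 and 147 from 2-fold upward, 30 and 10 from 4-fold upward, and 7 and 3 from 8-fold upward. With the scaling used here the strongest responses were thus few and more often upward. The balance from 2-fold upward depended on that scaling, as given below. The median log2 fold change of all 9259 genes was 0.02, with quartiles of -0.18 and 0.23.

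Treated and untreated libraries were separate for nearly every gene called with a 1.5-fold change. The calls were made on the same libraries, which by itself favours such separation. In 608 of the 609 raised genes each treated library lay above each untreated one, and in 542 of the 543 lowered genes each lay below, against 30.1% and 23.5% of all genes of at least 10 CPM. The first principal component of log2 CPM held 80.4% of the variance and placed the untreated libraries at -22.2 to -20.8 and the treated ones at 21.2 to 21.4. Library pairs correlated at 0.988 to 0.989 within the untreated group, at 0.9945 to 0.9955 within the treated group and at 0.95 to 0.953 between groups, across genes, which are not independent replicates.

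Most genes of at least 10 CPM stayed within narrow limits. For 6688 of them (72.2%) the 95% interval of the log2 fold change lay wholly inside a 1.5-fold change in either direction. Of the 5317 genes that were not called, 4972 had such an interval, and for the other 345 a change of 1.5-fold could not be told from none at this spread.

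The balance of raised and lowered genes depended on how libraries were scaled. TMM scaling, used here, assumes that most genes do not change, and scaling by library totals alone moved the median log2 fold change by -0.14. With totals alone, 407 genes rose and 877 fell by at least 1.5-fold, and of all called genes 31.7% were raised rather than 57.1%. Of the 1152 genes called with a 1.5-fold change under TMM, 950 remained called at that fold and all 1152 kept their sign with totals alone. The count of genes in each direction is therefore relative to the typical gene. At a fold of at least 4 the counts were 23 raised and 18 lowered with totals alone, and at a fold of at least 2 they were 144 and 250.

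**Figure D2:**
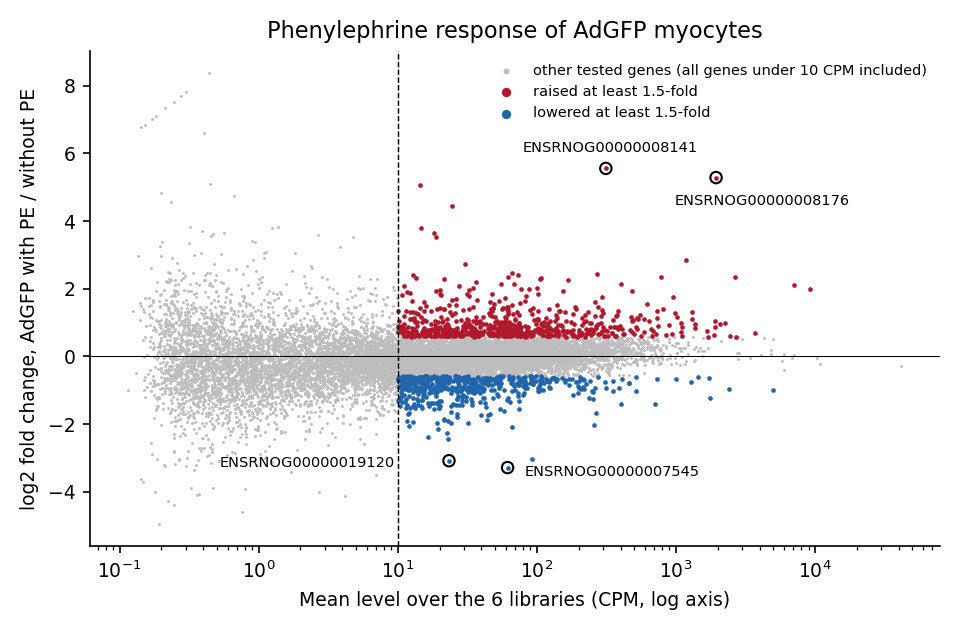
Mean level over the 6 AdGFP libraries in CPM (x axis, log scale) and log2 fold change with PE (y axis) for each of the 14966 tested genes. Red and blue points are the 609 raised and 543 lowered genes averaging 10 CPM or more (dashed line), and circles mark the 4 IDs described in the text, at log2 fold changes from -3.29 to 5.56.

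Raised genes lay at higher levels than lowered ones. The 609 raised genes had a median level of 57.9 CPM (quartiles 24.7 and 140) and the 543 lowered genes one of 28.3 CPM (quartiles 15.8 and 54.7). CPM is not divided by gene length, so these classes order genes by their reads and not by molecules. The mean level includes the treated libraries, so a rise by itself moves a gene to a higher level and a fall to a lower one. How much of the difference in level between raised and lowered genes comes from this was not tested. At 10 to 50 CPM, 277 genes rose and 390 fell by at least 1.5-fold of 5109 tested. At 50 to 200 CPM, 212 rose and 115 fell of 3259, and at 200 to 1000 CPM, 96 rose and 31 fell of 810. Of the 81 genes at 1000 CPM or more, 24 rose and 7 fell. The median log2 fold change went from -0.03 at 10 to 50 CPM to 0.06, 0.17 and 0.25 in the next classes, and the median SE fell from 0.12 to 0.052 over the same range. With library totals alone, raised genes made up 21.8%, 42.2%, 60.0% and 70.8% of those called at this fold in the 4 classes, against 41.5%, 64.8%, 75.6% and 77.4% with TMM. The order by level was thus present under both scalings, whereas which direction prevailed at 50 to 200 CPM was not.

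**Figure D3:**
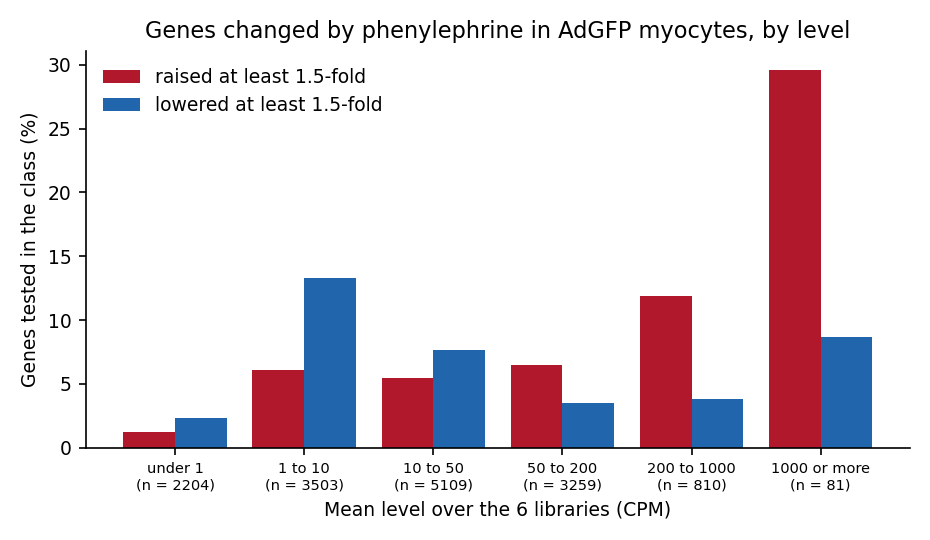
Percent of tested genes (y axis) raised (red) or lowered (blue) at least 1.5-fold with PE in AdGFP myocytes. Genes are in 6 classes of mean level in CPM (x axis, with the number of genes). At 1000 CPM or more 24 of 81 genes rose and 7 fell, while at 1 to 10 CPM 213 rose and 467 fell of 3503.

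The share of the library held by a fixed set of genes does not depend on the scaling. The sets below were called under TMM scaling, and totals alone would give other sets. The 609 raised genes held 7.93% to 8.02% of the counts in tested genes without PE and 15.9% with PE in each library. The 543 lowered genes held 5.95% to 6.12% without PE and 2.93% to 2.99% with PE. The 1643 genes raised by less than 1.5-fold held 24.7% to 24.8% without PE and 28.3% to 28.7% with PE. The 1147 genes lowered by less than 1.5-fold held 17.9% to 18.1% without PE and 13.1% to 13.4% with PE. The share of the 5317 genes not called was also lower with PE, at 37.8% to 38.0% against 41.4% to 41.5%. That share is relative to the library total. TMM scaling multiplied the totals by 1.047 to 1.049 without PE and by 0.947 to 0.958 with PE. These sets were chosen on the same libraries, so their shares describe the response and do not test it.

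Below 10 CPM more genes fell than rose with TMM scaling. Of 5707 such genes tested, 252 rose and 550 fell (4.42% and 9.64%), and with a 1.5-fold minimum 240 rose and 519 fell (4.21% and 9.09%). Their median log2 fold change was -0.17. Over all 14966 tested genes, 849 rose and 1062 fell by at least 1.5-fold (5.67% and 7.1%). These are the levels at which the untreated libraries were most variable and held few low counts, and the part of those features in the low-level result was not tested. When each library was thinned to the smallest total, an alternative added after the data were seen, the genes of at least 10 CPM gave 606 raised and 550 lowered by 1.5-fold, close to the counts at full depth. No gene was at 0 counts in all libraries of one group and at 1 CPM or more, by library totals without scaling, in each library of the other.

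Among genes of at least 10 CPM, the 2 largest rises belonged to ENSRNOG00000008141 and ENSRNOG00000008176. ENSRNOG00000008141 stood at 16.6, 8.26 and 14.5 CPM in the untreated libraries and at 622, 588 and 633 CPM in the treated ones. The treated libraries lay close together, whereas untreated replicate 2 was at the low end of a wider range. Its mean went from 13.1 ± 4.32 to 614 ± 23.4 CPM (SD, n = 3 each), which is 5.56 on the log2 scale (SE 0.283; edgeR, adjusted p = 6.18e-05), or 47.1-fold. ENSRNOG00000008176 stood at 100, 83.1 and 109 CPM without PE and at 3910, 3765 and 3709 CPM with PE. Each treated library was far above each untreated one. Its mean went from 97.3 ± 13.0 to 3795 ± 104 CPM (SD, n = 3 each), a log2 change of 5.29 (SE 0.084; edgeR, adjusted p = 4.04e-19), or 39-fold. This one gene took 0.00871% to 0.0114% of all counts without PE and 0.351% to 0.375% with PE. The third raised gene was close behind at a log2 fold change of 5.08, and the next ones stood at 4.44, 3.80, 3.65 and 3.53, with 2.84 for the eighth.

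At the same minimum level, the 2 largest falls belonged to ENSRNOG00000007545 and ENSRNOG00000019120. ENSRNOG00000007545 stood at 109, 95.7 and 132 CPM in the untreated libraries and at 14.1, 8.51 and 11.7 CPM in the treated ones, with groups far apart. Its mean went from 112 ± 18.2 to 11.4 ± 2.79 CPM (SD, n = 3 each), a log2 change of -3.29 (SE 0.142; edgeR, adjusted p = 1.39e-12). ENSRNOG00000019120 stood at 42.3, 41.2 and 42.0 CPM without PE and at 5.29, 4.79 and 4.70 CPM with PE. Both groups were tight and far apart. Its mean went from 41.8 ± 0.577 to 4.93 ± 0.315 CPM (SD, n = 3 each), a log2 change of -3.08 (SE 0.122; edgeR, adjusted p = 4.29e-13). Falls were smaller than rises at each of the first 10 ranks, with -3.03 for the third and -2.45 for the fourth lowered gene.

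**Figure D4:**
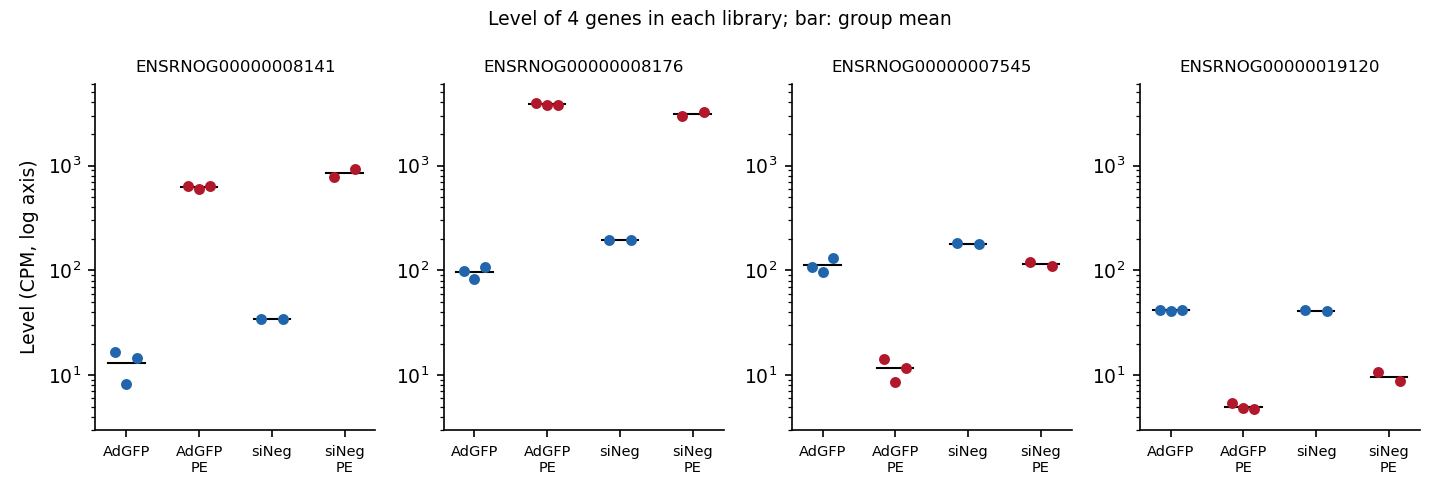
Level in CPM (y axis, log scale) of 4 genes in each library of the AdGFP and siNeg arms without (blue) and with PE (red), scaled together over the 10 libraries, with bars at group means. ENSRNOG00000007545 falls to 8.61 to 14.3 CPM in AdGFP with PE and lies at 110 to 120 CPM in siNeg with PE.

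To see where the Ad-GFP response differs from that of other control cells, it was set beside the PE response of siNeg cells, which share no library with the Ad-GFP arm. Virus or small interfering RNA, the order of the treatments, the sequencing depth and the table differ together between the arms and cannot be told apart. All 10 libraries entered 1 fit, in which 16553 genes were tested and 9294 averaged 10 CPM or more. In that fit 2825 genes rose and 1798 fell in Ad-GFP (30.4% and 19.3%) and 2038 and 1346 in siNeg (21.9% and 14.5%). The fit of the 6 Ad-GFP libraries alone gave 2252 and 1690, of which 609 and 543 reached 1.5-fold. The 10-library fit, used in the rest of this comparison, takes scaling, spread and mean level from the siNeg libraries too. Ad-GFP had 3 libraries a group and siNeg 2, while siNeg libraries were deeper, at 181101876 to 224082309 counts against 33155447 to 60994028. Both the number and the depth of libraries bear on the power to call a gene, which thus differed between the arms. The part of this in the counts and overlaps was not tested. At 1.5-fold or more, 676 genes rose and 504 fell in Ad-GFP (7.27% and 5.42%), and 533 rose and 458 fell in siNeg (5.73% and 4.93%). Both arms shared 377 raised genes, 55.8% of the Ad-GFP list and 70.7% of the siNeg list, and 296 lowered genes, 58.7% and 64.6% of the lists. With library totals alone the shared genes numbered 257 raised and 487 lowered. Of the 676 genes, 0 were called lowered in siNeg at any fold by the same test, and of the 504, 3 were called raised. Of all 2825 raised and 1798 lowered genes, 21 and 19 were called the other way in siNeg. Across the 9294 genes the log2 fold changes of the arms had a Pearson correlation of 0.84 and a Spearman correlation of 0.785, and across the 7259 genes under 10 CPM the Spearman correlation was 0.452, as descriptions across genes.

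The stronger a gene's rise in Ad-GFP, the more completely it was called in siNeg. Falls did not keep this order in their strongest class. Among all 9294 genes, 21.9% were called raised and 14.5% lowered in siNeg. Larger changes are easier to call in any arm, and the part of this was not tested. Of 2149 genes raised by less than 1.5-fold in Ad-GFP, 1092 were also called raised in siNeg. Of 458 raised 1.5- to 2-fold, 362 were, and of 183 raised 2- to 4-fold, 171 were. All 35 genes raised at least 4-fold in Ad-GFP rose at least 1.5-fold in siNeg, with a median log2 fold change of 2.03 there against 2.33 in Ad-GFP. Of 1294 genes lowered by less than 1.5-fold, 616 were called lowered in siNeg. Of 373 lowered 1.5- to 2-fold, 294 were, and of 119 lowered 2- to 4-fold, 112 were. Of 12 genes lowered at least 4-fold in Ad-GFP, 9 were, and the medians of the 12 were -2.40 in Ad-GFP and -1.18 in siNeg. These classes were set on the Ad-GFP values, which by itself favours larger values in that arm. For the 533 genes raised and the 458 lowered at least 1.5-fold in siNeg, the Ad-GFP medians were 0.81 and -0.73, beside 0.81 and -0.79 in siNeg.

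With levels averaged over the 10 libraries, treated ones included, the siNeg counts went the same way with level. A rise or fall moves a gene's averaged level in either arm, so this likeness is partly built in, by an amount not tested. Of 5126 genes at 10 to 50 CPM, siNeg had 244 raised and 311 lowered by at least 1.5-fold, and Ad-GFP 307 and 368. Of 3297 at 50 to 200 CPM, siNeg had 186 and 113 and Ad-GFP 244 and 104. At 200 to 1000 CPM (792 genes) the numbers were 83 and 30 in siNeg and 98 and 27 in Ad-GFP. At 1000 CPM or more (79 genes) they were 20 and 4 in siNeg and 27 and 5 in Ad-GFP.

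The difference of the responses was tested directly. Of the 9294 genes, 531 (5.71%) had a PE response that differed between the arms at an adjusted p under 0.05 in edgeR's quasi-likelihood test, 346 with a higher and 185 with a lower value in Ad-GFP (3.72% and 1.99%). For 127 and 78 of them the difference was at least 1.5-fold (1.37% and 0.839%). With library totals alone the split was 248 higher and 256 lower. For 7364 genes (79.2%) the 95% interval of the difference lay inside 1.5-fold. Among genes under 10 CPM only 31 of 7259 differences were called (0.427%).

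Most of the called differences were of degree or lay in genes called in one arm. Among the 531 genes, 104 rose in both arms and more in Ad-GFP, with median log2 fold changes of 1.13 in Ad-GFP and 0.56 in siNeg, and 36 rose in both and more in siNeg. A further 46 fell in both and more in Ad-GFP, and 41 fell in both and more in siNeg. The largest class, 131 genes, rose in Ad-GFP with a median of 0.47 and was not called in siNeg, where the median was -0.01. Genes lowered in Ad-GFP and not called in siNeg numbered 47. In the mirror classes, 37 genes rose and 49 fell in siNeg without a call in Ad-GFP. Opposite calls were rare, with 21 genes raised in Ad-GFP and lowered in siNeg, at medians of 0.22 and -0.35, and 19 the other way, at -0.35 and 0.33. The number of called differences moved with single libraries. Without 1 library it ranged from 135 to 503 higher and from 67 to 271 lower, and both counts moved by more than 1.5 times without any of 5 libraries. The counts were 150 and 67 without untreated siNeg replicate 1, 141 and 72 without untreated siNeg replicate 2, and 135 and 85 without siNeg with PE replicate 1. They were 229 and 102 without Ad-GFP with PE replicate 2 and 229 and 108 without Ad-GFP with PE replicate 3. Without siNeg with PE replicate 2 only the lower count moved that far, to 101.

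Of the 4 IDs, the lowered ENSRNOG00000007545 differed most between the arms. All 4 were chosen for large responses in the same Ad-GFP libraries, which by itself favours a smaller response in siNeg. The adjusted p-values of their differences do not allow for that choice. In siNeg it went from 181 and 178 CPM without PE to 120 and 110 CPM with PE, a log2 change of -0.64 (SE 0.146; edgeR, adjusted p = 0.00441). In the same fit its Ad-GFP value was -3.26, and the difference was -2.62 (SE 0.204, edgeR adjusted p = 1.99e-05). It was thus lowered in both arms, and both siNeg libraries with PE lay far above the Ad-GFP ones with PE. ENSRNOG00000019120 went from 41.5 and 40.6 to 10.7 and 8.71 CPM in siNeg, from nearly the same untreated level as in Ad-GFP. Its log2 fold change was -2.08 there (SE 0.11), and the difference was -0.98 (SE 0.146, edgeR adjusted p = 0.002).

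The same limit of choice holds for the differences of the 2 raised IDs. ENSRNOG00000008176 went from 196 and 194 to 2953 and 3260 CPM in siNeg, a log2 fold change of 3.99 (SE 0.0998). The untreated siNeg libraries lay above the untreated Ad-GFP ones, and the difference of the responses was 1.32 (SE 0.115, edgeR adjusted p = 6.31e-05), higher in Ad-GFP. ENSRNOG00000008141 went from 34.4 and 34.5 to 775 and 927 CPM in siNeg, a log2 fold change of 4.63 (SE 0.215). Its difference of 0.95 (SE 0.251) missed the threshold (edgeR adjusted p = 0.0641). It passed with limma voom and quality weights (difference 1.05, adjusted p = 0.023), and in edgeR without Ad-GFP replicate 1 (difference 1.15, edgeR adjusted p = 0.0138) or Ad-GFP replicate 2 (difference 0.70, edgeR adjusted p = 0.00593), and over all alternatives the adjusted p ranged from 0.00593 to 0.549.

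**Figure D5:**
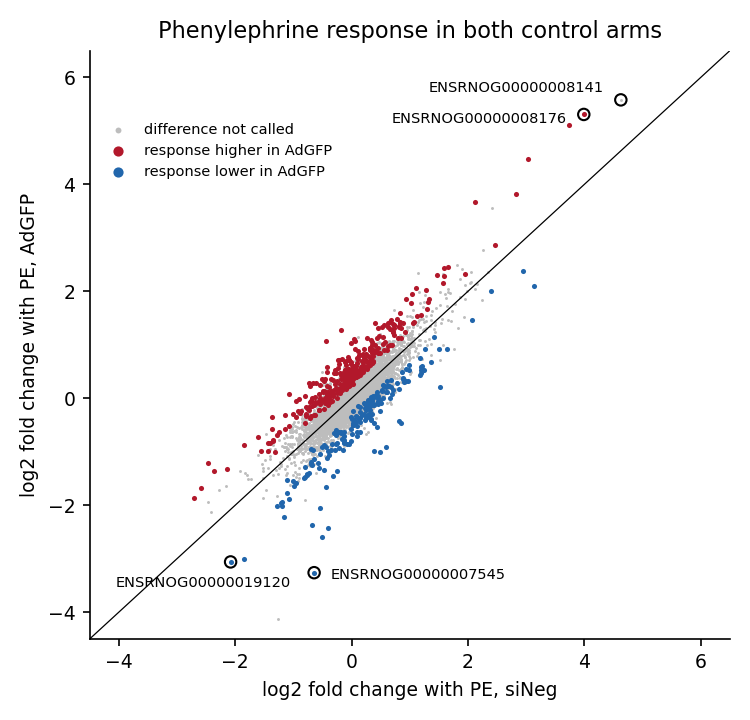
Log2 fold change with PE in siNeg (x axis) and AdGFP (y axis) for the 9294 genes averaging 10 CPM or more over 10 libraries, with the line of equal response. Red and blue points are the 346 and 185 genes whose response was called higher or lower in AdGFP, and circles mark the 4 IDs, of which ENSRNOG00000007545 lies at -0.64 and -3.26.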

How the data were processed

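RNA sequencing counts of NRVMs were analysed. Each library started from 400 ng of RNA, per the labels' protocols, which name a kit and no strand setting, so reads of overlapping or antisense genes may be shared. Per the submitters' processing notes, the authors used Trim Galore, STAR and featureCounts on mRatBN7.2, with versions and settings not given in the sources used here. The deposited values are raw counts per Ensembl ID. Even values made up 75.8% to 82.2% of counts of 1 to 20 in the 6 Ad-GFP libraries, so counts may not be independent fragments.

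Genes passed filterByExpr (minimum count 10, minimum total 15) and were scaled by TMM. A quasi-likelihood fit in edgeR 4.0.16 (R 4.3.3) of the 2 compared groups gave two-sided p-values, adjusted by Benjamini-Hochberg over all 14966 genes tested. The biological coefficient of variation was 17.7%. Only the compared groups entered, because the untreated libraries had been described as more variable than the rest of their table. SE is the log2 fold change divided by the root of the F statistic. CPM uses TMM-scaled totals, except where library totals without scaling are stated. A second fit of 10 libraries tested the difference from siNeg as an interaction. Both fits were checked on simulated independent counts in which few genes were changed. That check does not cover the choice of scaling or the excess of even counts.

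The 2 IDs with the largest rise and the 2 with the largest fall were named, among called genes of at least 10 CPM with groups that did not overlap. Symbols could not be matched, so the 30 gene lists and 9 marker lists drawn up were not used. The members, lists and rules were chosen with earlier results of these data known. Alternatives used limma 3.58.1 and DESeq2 1.42.0. Figures were drawn with matplotlib 3.10.9.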

Additional observations from a re-analysis of the deposited data

Results flagged for a closer look

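Of the 4 IDs followed, 3 had a PE response that differed between Ad-GFP and siNeg cells by the test of the difference itself, in edgeR's quasi-likelihood test over 10 libraries. The difference (Ad-GFP minus siNeg, log2) was 1.32 for ENSRNOG00000008176, which rose in both arms. It was -2.62 for ENSRNOG00000007545, which fell in both arms. For ENSRNOG00000019120, which also fell in both, it was -0.98. These IDs were chosen for large responses in Ad-GFP, which by itself favours a smaller response in siNeg.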

How the results depend on the processing

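The PE response of Ad-GFP cells gave 332 genes raised and 153 lowered by at least 1.5-fold, and 717 lowered at any fold, at a mean of at least 50 CPM, where fewer genes were tested. With no level minimum 1062 were lowered by at least 1.5-fold. Library totals alone gave 877 lowered by at least 1.5-fold, 1355 raised and 2920 lowered. The other alternatives run for this response (RLE factors, no filter, DESeq2, voom with quality weights, all 4 groups in the fit, halved counts, thinning to the smallest total, and each library left out) gave counts within 1.5 times of those reported, and without 1 library 605 to 646 genes rose and 530 to 584 fell by at least 1.5-fold. With the replicate number as a block, 612 rose and 535 fell by at least 1.5-fold, 306 differences from siNeg were higher and 159 lower. Same-numbered libraries of the groups correlated at 0.027, -0.059 and -0.052 in their deviations, and different-numbered ones at -0.049 to 0.102. These values show no pairing by number but cannot exclude a weak one. Differences from siNeg numbered 618 higher and 394 lower with DESeq2, 678 and 365 with voom, and 116 lower at 50 CPM or more. Without 1 library they numbered 135 to 503 higher and 67 to 271 lower, and a group of siNeg left with 1 library was taken to vary like the others. The causes of these shifts were not tested. The log2 fold changes of the 4 IDs kept their sign and call in each alternative run for the PE response.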
